A study of Mus musculus with 6 samples.

Results

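The cells described here are the 1010 cells with the highest share of transcripts from 7 marker genes of the alveolar type I (ATI) cell, out of 36584 cell barcodes in the deposited matrix. They were chosen in 2 of the 3 libraries of that matrix, called B and C, as the 5% of cells with the highest summed fraction of Ager, Hopx, Cav1, Akap5, Clic5, Pdpn and Rtkn2 among cells of at least 1000 unique molecular identifiers (UMIs, each standing for 1 captured transcript). That gave 280 of 5593 cells of library B and, for library C, 730 of 14594. They are written as B and C below. The chosen cells were set against the cells of the same library in the lower 50% of that sum that held no UMI of the mitotic genes Mki67, Top2a, Cdk1 and Ccnb1, which left 1708 and 4921 cells respectively. These are called marker-high and marker-low cells below.

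The study measured single-cell RNA by droplet sequencing of 3 prime ends in mouse alveolar type II (ATII) cells and in the alveolarspheres grown from them, to ask how interleukin 4 acts on ATII cells of young and old mice. The labels list 3 expression libraries: a day 0 library of ATII cells freshly sorted from both ages, a day 13 culture from both ages and a second day 13 culture from the young only, each with its own library of multiplexing tags. All carry the genotype label IL4Ra WT and a treatment label that says only that the sample is mixed, and neither strain nor age in numbers is given. The culture, without serum or feeder cells, received cytokine at 10 ng/ml or PBS from day 3, and the series title names IL-4 where the design text gives another interleukin number.

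The 3 library prefixes of the barcodes matched no label, and 0 features of the matrix are multiplexing tags. Libraries A, B and C are therefore named by their order of first appearance, and the treatment, age, mouse and day of each cell are unknown here. That libraries B and C are cultured could not be checked against the labels. Each library is 1 sample, B and C do not replicate one another, and the cells of a library are no replicates of a condition. No p-value is given. Differences between the 2 classes of cells are descriptions of each library, and how treatment and age are mixed in each class cannot be told apart from the difference between the classes.

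The alveolus is lined by 2 epithelial cell types. ATII cells are cuboidal, store surfactant in lamellar bodies and act as stem cells of the alveolus, while ATI cells are very thin, flat cells rich in caveolae that cover most of the surface and carry gas exchange and ion and water transport. When ATII cells turn into ATI cells in injury or in culture, they pass through transitional states known for keratins such as Krt8 and Krt19, and stretch, YAP and TAZ signalling and TGF beta family signals are known to bear on that passage. Among the rule genes, Ager encodes the receptor for advanced glycation end products, Hopx a homeodomain protein, Cav1 the main caveola protein, Akap5 a kinase anchoring protein, Clic5 an intracellular chloride channel protein tied to the actin cortex and Pdpn podoplanin.

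Marker-high cells are a range cut from a per-cell score and not a cell type. In library B the lowest marker-high cell had 1832.62 counts per 1000000 UMIs (CPM) of the 7 genes, which was 6 of 3274 UMIs, and the next cell below had 1825.93 CPM, which was 3 of 1643 UMIs. In library C the corresponding values were 3964.32 CPM, from 12 of 3027 UMIs, and 3961.00 CPM, from 13 of 3282 UMIs. Within 1.2-fold of the threshold lay 58 marker-high cells (20.7%) and 48 others in B, and 206 (28.2%) and 284 in C. The median marker-high cell held 15 UMIs of the 7 genes in B and 14 in C, with ranges of 3 to 80 and 5 to 53. Most of these came from 1 gene: Ager gave 69.4% of the rule genes' UMIs in B and 63.8% in C.

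Nearly every marker-high cell held Ager, in 279 of 280 cells and 730 of 730 cells. Hopx was seen in 226 and 662 cells, Clic5 in 181 and 435, Akap5 in 138 and 396, Cav1 in 34 and 87, Pdpn in 12 and 35, and Rtkn2 in 8 and 34 cells of B and C. At least 3 of the 7 genes were seen in 190 cells (67.9%) of B and 548 cells (75.1%) of C, and Ager alone in 27 and 18 cells.

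The cells compared differed in depth. Marker-high cells had a median of 4412 UMIs and 1401.5 genes per cell in B, against 8615 UMIs and 2160.5 genes in marker-low cells. In library C the medians were 2310.5 UMIs and 915.5 genes against 3441 UMIs and 1159 genes. The median share of mitochondrial UMIs was 0.61% against 0.80% in B and 0.59% against 0.63% in C. The nuclear RNA Malat1 stood at 9864 CPM against 5898 CPM in B and at 8394 CPM against 4274 CPM in C, and its part in the results was not tested. Its median per cell was lower in marker-high cells of B, at 2657 CPM against 2977 CPM, and higher in those of C, at 2609 CPM against 1790 CPM. Of 3 nuclear RNAs with at least 20 CPM in both libraries, 0 were at least 2-fold higher in both and 1 was lower in both. Over all genes these shares were 6.48% and 4.45%. The median log2 difference of the 3 was -0.27 in B and 0.06 in C. Libraries B and C shared 22 barcodes, 1 marker-high barcode of B also occurred in C, and no barcode was marker-high in both.

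Each rule gene was also measured in cells chosen without it, by the other 6 genes, so that its own level did not pick the cells. All 7 stood at least 2-fold higher in the cells chosen by the other 6, in both libraries. The choice of cells by these 7 genes was made with earlier results of these data known, so these values describe the cells and are no independent support. Ager stood at 1793 CPM (95% exact Poisson interval 1726 to 1863) against 85.3 CPM (80.6 to 90.1) in B. In library C it stood at 2636 CPM (2564 to 2709) against 285 CPM (277 to 292). Hopx stood at 529 CPM against 17.0 CPM in B and 985 CPM against 33.0 CPM in C, and Akap5 at 223 CPM against 3.76 CPM and 361 CPM against 21.5 CPM. Clic5 stood at 305 CPM against 40.2 CPM and at 425 CPM against 24.7 CPM. The remaining 3 genes rest on few UMIs in the marker-high cells: 38 and 92 of Cav1, 17 and 39 of Pdpn, 14 and 34 of Rtkn2 in B and C. The smallest ratio of the 14 was 4.39-fold, for Pdpn in C. All intervals here and below cover counting error only.

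**Figure D1:**
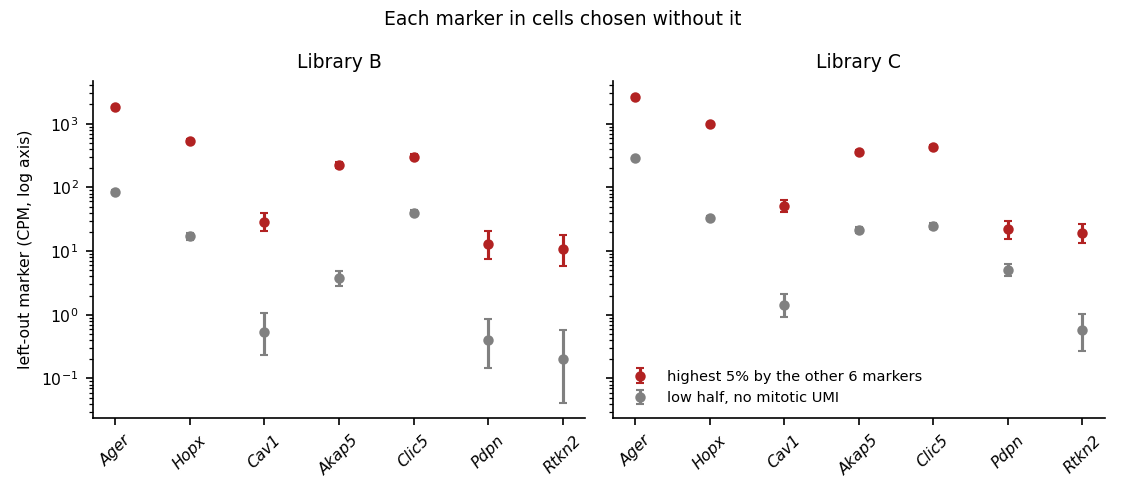
Level of each of the 7 rule genes (CPM of summed UMIs, log axis) in the 5% of cells highest in the other 6 genes (red) and in the lower 50% of that sum without mitotic UMIs (grey), in B and C. Bars are 95% exact Poisson intervals and cover counting error only; Ager stood at 1793 CPM against 85.3 CPM in B and at 2636 CPM against 285 CPM in C.

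Choosing cells without Ager changed which cells were chosen. Of the 280 and 730 marker-high cells, 179 (63.9%) and 457 (62.6%) were also chosen by the other 6 genes, while leaving out any other rule gene kept between 86.2% and 100% of them. Library C held more of these transcripts in sum: over all its cells the 7 genes summed to 762 CPM, against 301 CPM in B. Its marker-low cells held 71.9 CPM of Ager, and those of B 15.1 CPM. Clic5 went the other way in the low cells chosen without it, at 24.7 CPM in C and 40.2 CPM in B.

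The comparison was then made for every gene with at least 20 CPM in either class, rule genes included. A gene was counted as higher or lower where the log2 difference, taken with a pseudocount of 1 CPM, was at least 1 in size, a 2-fold difference. In library B, 566 of 4848 genes tested (11.7%) were higher in marker-high cells and 388 (8.00%) lower. In library C, 440 of 4797 (9.17%) were higher and 310 (6.46%) lower. Of 4380 genes tested in both, 284 (6.48%) were higher in both and 195 (4.45%) lower in both, rule genes included, and these shares are the background for each count below. With TMM scaling the split was 225 higher and 262 lower, and with median-of-ratios scaling 231 and 248. The median log2 difference over the 4380 genes was 0.14 in B and 0.10 in C, and TMM scaling set it to -0.02 and -0.06. Across those genes, which are not independent replicates, the 2 libraries' log2 differences had a Pearson r of 0.85.

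**Figure D2:**
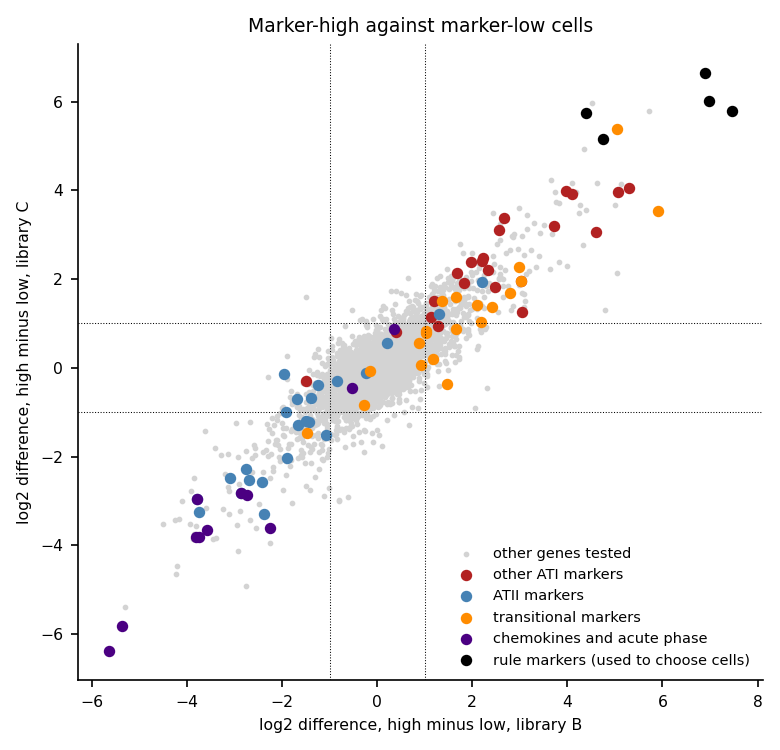
Log2 difference of marker-high minus marker-low cells in library B (horizontal) and C (vertical) for the genes tested in both, each point 1 gene and dotted lines at a 2-fold difference. Rule genes (black) were used to choose the cells; most other ATI markers (red) lie to the upper right, with Egfl6 to the lower left, and most ATII markers (blue) and the chemokine and acute phase genes (purple) to the lower left.

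The genes with the largest differences in the same direction in both libraries were ranked by the smaller of their 2 log2 differences, among genes with at least 50 CPM in either class in both libraries. The 12 highest outside the rule genes were Pmp22, Msln, Clic3, Fam189a2, Ahnak, Slco3a1, Ndnf, S100a14, Wdr45, Cavin2, Igfbp7 and Efemp1. Pmp22, which encodes a membrane protein best known from myelin and of the same family as Emp2, stood at 58.5 CPM in marker-high cells of B (77 UMIs) and 0.134 CPM in marker-low cells (2 UMIs), a 438-fold ratio with an exact interval of 117 to 3681. In library C Pmp22 stood at 92.0 CPM against 0.683 CPM, a 135-fold ratio (75.1 to 266). Clic3, a second intracellular chloride channel protein, stood at 440 CPM against 11.6 CPM in B and at 939 CPM against 52.3 CPM in C. Ahnak, a giant scaffold protein under the plasma membrane, stood at 419 CPM against 9.75 CPM and at 344 CPM against 19.8 CPM. Pmp22 was close to absent from the marker-low cells, and Clic3 and Ahnak were present in them at low level.

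The promoter windows of Ager, the gene that contributed most to the choice of cells, and of Pmp22 and Ahnak, 2 of the genes that moved with it, are shown from RefSeq on build GRCm38.p6, 300 bases each, plus strand, 5′ to 3′. Capitals mark matches to the core motif of the TEAD factors, the DNA-binding partners of YAP and TAZ, searched as GGAATG on both strands (CATTCC is its reverse complement). The Ager window is chr17:34597600-34597899, the Pmp22 window, the first of 4 listed for that gene, chr11:63128732-63129031, and the Ahnak window chr19:8989034-8989333.
Ager: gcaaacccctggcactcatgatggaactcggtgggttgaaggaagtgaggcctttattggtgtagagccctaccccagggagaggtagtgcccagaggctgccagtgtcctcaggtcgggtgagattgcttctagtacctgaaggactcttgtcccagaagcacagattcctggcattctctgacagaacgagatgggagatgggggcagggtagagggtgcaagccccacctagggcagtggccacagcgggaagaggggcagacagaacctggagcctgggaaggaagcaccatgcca
Pmp22: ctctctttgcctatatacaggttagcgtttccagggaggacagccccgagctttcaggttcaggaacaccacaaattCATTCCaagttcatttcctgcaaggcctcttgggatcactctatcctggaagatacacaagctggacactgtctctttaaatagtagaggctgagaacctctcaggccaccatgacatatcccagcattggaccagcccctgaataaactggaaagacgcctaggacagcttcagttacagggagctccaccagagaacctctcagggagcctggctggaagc
Ahnak: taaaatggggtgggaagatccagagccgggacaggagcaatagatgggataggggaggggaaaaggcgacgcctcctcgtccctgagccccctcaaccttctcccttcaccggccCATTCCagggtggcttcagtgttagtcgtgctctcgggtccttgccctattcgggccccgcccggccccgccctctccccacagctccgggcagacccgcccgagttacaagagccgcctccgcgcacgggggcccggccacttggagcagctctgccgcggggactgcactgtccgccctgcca
The TEAD letters were found in 14.7% of all 32851 RefSeq promoter windows, in 11.6% of the windows of genes tested in both libraries, in 14.8% of those of genes higher in both and in 13.5% of those lower in both. The AP-1 letters TGANTCA, searched on both strands, were found in 7.81%, 4.91%, 8.08% and 6.22% of the same sets. Of the genes higher in both, 223 of 284 (78.5%) matched a RefSeq window by symbol, and of those lower in both, 150 of 195 (76.9%). None of 8 windows of 6 rule genes held either motif. The other 3 windows of Pmp22 held no TEAD match. Pmp22 and Ahnak are shown because they hold one: of 8 matched genes among the 12 highest named above, they and Wdr45 did, and Clic3, Fam189a2, Cavin2, Igfbp7 and Efemp1 did not. A match is a description of the letters in a window, and these windows show no binding.

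Of 22 other ATI markers tested in both libraries, 19 were higher in marker-high cells in both and 0 lower, with a median log2 difference of 2.41 in B and 2.29 in C, against 0.14 and 0.10 over all genes tested. Of the 30 genes in that list, 8 did not reach 20 CPM in both libraries. The list was written with earlier results of these data known. Cldn18, the claudin whose lung form seals alveolar tight junctions, stood at 717 CPM against 53.6 CPM in B, a ratio of 13.4 (12.2 to 14.7), and at 924 CPM against 99.4 CPM in C, a ratio of 9.29 (8.68 to 9.95). Emp2, an epithelial membrane protein of ATI cells, stood at 1006 CPM against 198 CPM and at 955 CPM against 206 CPM. Aqp5, the water channel of the ATI apical membrane, was already abundant in the marker-low cells: 1700 CPM against 747 CPM in B and 2880 CPM against 1013 CPM in C. The 3 tested markers that were not 2-fold higher in both were Tspan8, with log2 differences of 1.29 and 0.93, Icam1, with 0.39 and 0.80, and Egfl6, with -1.50 and -0.30.

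Other markers of that list that were higher in both libraries were Timp3, Cryab, Ndnf and Vegfa. Timp3, an inhibitor of matrix proteases, stood at 359 CPM against 77.5 CPM in B and at 359 CPM against 66.8 CPM in C. Cryab, a small heat shock protein, stood at 863 CPM against 34.4 CPM and at 553 CPM against 65.8 CPM. Ndnf, a secreted glycoprotein, stood at 245 CPM against 14.8 CPM and at 499 CPM against 30.8 CPM, close to 16-fold in both libraries (16.6 and 16.2). Vegfa, the endothelial growth factor that ATI cells are known to supply, stood at 125 CPM against 30.9 CPM and at 153 CPM against 28.6 CPM.

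The sum of the other ATI markers per cell did not separate the classes completely but shifted as a whole. Its median was 8186 CPM in marker-high cells and 1981 CPM in marker-low cells of B, and 10030 CPM and 2641 CPM in C. The ATII markers, which were no part of the choice either, summed to a median of 39261 CPM against 185851 CPM in B. In library C these medians were 97457 CPM against 160080 CPM, a smaller gap. The classes are not alike in the 2 libraries: the lowest marker-high cell held 1832.62 CPM of the rule genes in B and 3964.32 CPM in C. The transitional markers summed to 10661 CPM against 5980 CPM in B and 6381 CPM against 3635 CPM in C.

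**Figure D3:**
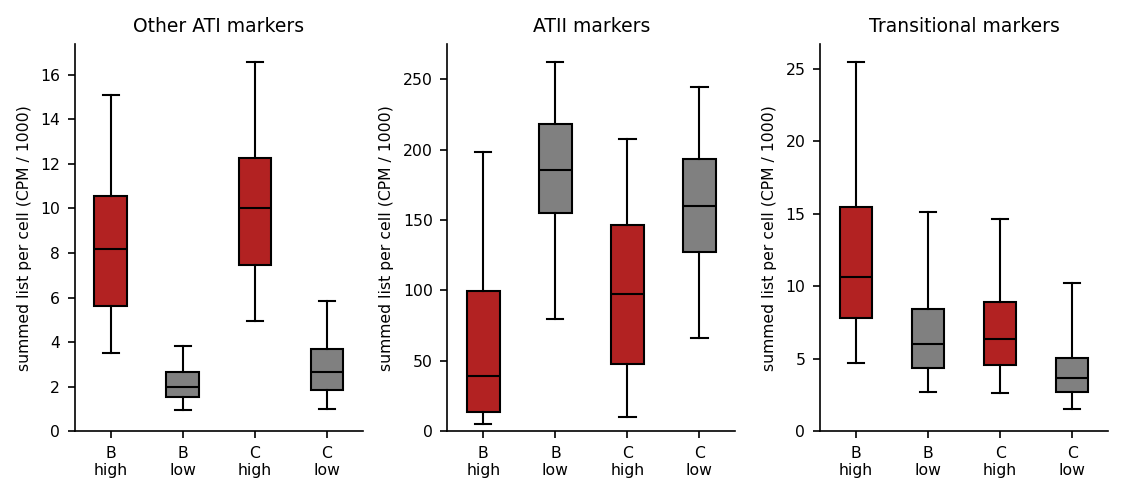
Summed level per cell (CPM divided by 1000) of the other ATI markers, the ATII markers and the transitional markers in marker-high (red) and marker-low (grey) cells of B and C. Boxes span the quartiles with the median as a line and whiskers the 5th to 95th percentiles of cells; the ATII medians of marker-high cells were 39261 CPM in B and 97457 CPM in C.

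Caveolae, the membrane pits that Cav1 forms, had 4 of 5 further genes tested higher in both libraries and 0 lower, with median log2 differences of 3.14 and 2.47. Cavin2, a coat protein of caveolae, stood at 146 CPM against 10.0 CPM in B and at 245 CPM against 14.7 CPM in C. Ehd2, an ATPase at the caveolar neck, stood at 31.9 CPM against 2.07 CPM and at 73.5 CPM against 8.08 CPM. Cavin3 and Cav2 were the other 2, with log2 differences of 3.14 and 2.11, and of 2.22 and 2.47.

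Among genes of water, ion and solute transport, 4 of 13 were higher in both libraries and 3 lower in both. Scnn1a, the alpha subunit of the epithelial sodium channel, stood at 75.2 CPM against 9.61 CPM in B and at 90.4 CPM against 10.6 CPM in C. Scnn1g, its gamma subunit, had 43 UMIs in marker-high cells of B and 0 in marker-low cells, at least 163-fold higher against a floor of 3 counts over the marker-low cells. In library C Scnn1g stood at 23.6 CPM against 0.569 CPM (42 and 10 UMIs). The chloride channel Cftr stood at 5.32 CPM against 37.8 CPM and at 5.05 CPM against 29.8 CPM, and the anion exchanger Slc26a4 at 22.8 CPM against 140 CPM and at 42.1 CPM against 167 CPM. The cystine transporter Slc7a11 was the third lower gene, and the amino acid transporter Slc6a14 was a higher one, with a log2 difference of 1.12 in B and one at the threshold in C.

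Of 26 genes of actin and cell shape, 12 were higher in both libraries and 0 lower, with medians of 1.43 and 0.90. Tpm2, a tropomyosin, stood at 102 CPM against 2.14 CPM in B and at 37.6 CPM against 7.74 CPM in C. Msn, which links actin to the membrane, stood at 250 CPM against 58.7 CPM and at 284 CPM against 62.5 CPM, and Cnn2, a calponin, at 298 CPM against 79.0 CPM and at 273 CPM against 87.8 CPM. Of 12 genes of the basement membrane and its receptors, 5 were higher and 0 lower, with medians of 0.63 and 1.25. Dag1, dystroglycan, stood at 90.4 CPM against 22.2 CPM and at 120 CPM against 30.2 CPM, and Col4a5, a type IV collagen chain, at 56.2 CPM against 14 CPM and at 46.6 CPM against 12.7 CPM. Junction genes, Cldn18 among them, were mostly under the threshold: 3 of 16 were higher and 0 lower, with medians of 0.59 and 0.68.

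Genes of the YAP and TAZ pathway, which responds to stretch, were mostly higher in marker-high cells. Of 9 YAP and TAZ target and partner genes tested, 8 were higher in both and 0 lower, with medians of 1.84 and 1.53. Against all other cells of the library 5 were higher in both, and the count over all genes was 194 in place of 284. Ccn2, a matricellular protein and a standard YAP target, stood at 31.1 CPM against 1.27 CPM in B and at 28.1 CPM against 4.55 CPM in C. Ajuba, a LIM protein that restrains the Hippo kinases, stood at 34.2 CPM against 4.74 CPM and at 37.0 CPM against 8.36 CPM. Tead1, one of the DNA-binding partners, stood at 110 CPM against 30.1 CPM and at 103 CPM against 28.8 CPM. Of 10 TGF beta and BMP genes, 5 were higher and 0 lower. Tgfb2, a ligand, stood at 85.0 CPM against 7.74 CPM and at 137 CPM against 13.4 CPM, and Id3, a target of BMP signals, at 72.1 CPM against 2.87 CPM and at 93.7 CPM against 7.45 CPM. Counts of this size are low per cell, and 9 of 18 listed YAP and TAZ genes and 15 of 25 listed TGF beta and BMP genes did not reach 20 CPM in both libraries.

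Growth factor ligands and receptors had 6 of 9 tested genes higher in both libraries and 0 lower. Nrg1, a ligand of the ERBB receptors, stood at 66.1 CPM against 9.21 CPM in B and at 56.7 CPM against 8.59 CPM in C. Pdgfa, the ligand that ATI precursors are known to send to fibroblasts, stood at 85.8 CPM against 30.2 CPM and at 112 CPM against 23.2 CPM. Areg, an EGF receptor ligand, stood at 51.6 CPM against 18 CPM in B but at 20.2 CPM against 26.2 CPM in C, and its sign in B was reversed in the highest 2% of cells, at -0.13.

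Of 20 transitional markers tested, 10 were higher in both libraries and 1 lower in both, with medians of 1.56 in B and 0.95 in C. Krt19, a keratin of transitional cells, stood at 1329 CPM against 190 CPM in B, a ratio of 6.99 (6.59 to 7.43), and at 751 CPM against 232 CPM in C, a ratio of 3.24 (3.04 to 3.45). S100a6, a calcium-binding protein, stood at 1062 CPM against 16.6 CPM in B and at 217 CPM against 17.9 CPM in C. Lgals3, galectin 3, stood at 1261 CPM against 159 CPM and at 664 CPM against 137 CPM. Krt8, the keratin most often used to mark the transitional state, stood at 989 CPM against 437 CPM in B and at 622 CPM against 544 CPM in C, log2 differences of 1.18 and 0.19. Nupr1, a stress-induced nuclear protein, was the 1 lower gene, at 1292 CPM against 3575 CPM and at 304 CPM against 842 CPM. Some genes stand in more than 1 list, so the counts of different lists are not separate results. Examples are Krt7, among ATI and transitional markers, Msln, among transitional and mesothelial ones, and Cldn18, among ATI markers and junction genes.

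Of 23 ATII markers tested, 13 were lower in both libraries and 2 higher in both, with medians of -1.69 in B and -1.23 in C. When the highest 10% of cells were taken, 7 were lower in both, and the count over all genes was 130 in place of 195. Among the surfactant proteins the gap was smallest for the most abundant one. Sftpc, the transcript that defines ATII cells, stood at 59594 CPM against 140615 CPM in B and at 92579 CPM against 121492 CPM in C, a log2 difference of -0.39 that did not reach 2-fold. Sftpa1, surfactant protein A, stood at 974 CPM against 13132 CPM in B, 13.5-fold lower (12.8 to 14.3), and at 1075 CPM against 10297 CPM in C, 9.58-fold lower (9.15 to 10.0). Sftpb stood at 658 CPM against 3511 CPM and at 416 CPM against 2477 CPM, and Sftpd at 1598 CPM against 4512 CPM and at 1941 CPM against 4490 CPM. Lamp3, of the lamellar body membrane, had log2 differences of -1.89 and -2.02, and Slc34a2, the phosphate transporter of ATII cells, -2.69 and -2.52. The 2 higher genes were Sfta2, at 488 CPM against 106 CPM and at 1144 CPM against 297 CPM, and Muc1, at 254 CPM against 102 CPM and at 507 CPM against 220 CPM.

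Sftpc varied widely among the marker-high cells. In library B its level per cell ran from 328 CPM to 283575 CPM with a median of 32320 CPM, and in C from 0 CPM to 266580 CPM with a median of 87326 CPM. So most of these cells still held many Sftpc UMIs while holding the ATI markers. Free RNA in the droplets can add UMIs of an abundant transcript to any cell, and its part in these levels was not tested.

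Genes of surfactant lipid and cholesterol synthesis were lower in part: 5 of 18 tested in both libraries and 0 higher, with medians of -0.57 and -0.68. Fabp5, a fatty acid binding protein, stood at 570 CPM against 5399 CPM in B and at 461 CPM against 4189 CPM in C. Scd1, the stearoyl-CoA desaturase, stood at 478 CPM against 1477 CPM and at 529 CPM against 1455 CPM. Lysosome and lamellar body genes had 1 of 13 lower and 0 higher, with medians of 0.38 and 0.67. Among 18 lineage transcription factors, 6 were lower and 1 higher. Cebpa, needed for ATII identity, stood at 9.11 CPM against 67.8 CPM and at 13.5 CPM against 69.1 CPM. Etv5, another factor of ATII cells, stood at 31.9 CPM against 68.6 CPM and at 32.6 CPM against 94.6 CPM. Gata6, a factor of the lung endoderm, was the higher one, at 83.5 CPM against 35.7 CPM and at 103 CPM against 40.7 CPM. With cells chosen by the 6 genes other than Ager, 3 of these factors were lower in both and 2 higher. Over all genes that choice gave 127 lower and 345 higher in both, in place of 195 and 284.

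Secreted chemokines and acute phase proteins were among the genes lowest in marker-high cells. Of 11 chemokine and acute phase genes tested, 9 were lower in marker-high cells in both libraries and 0 higher, with medians of -3.58 and -3.61. Only those 11 of 28 genes listed reached 20 CPM in both libraries. Cxcl5, a neutrophil chemokine, stood at 21.3 CPM against 1108 CPM in B, 52.1-fold lower (36.0 to 78.4), and at 12.9 CPM against 1165 CPM in C, 90.3-fold lower (60.1 to 142). Cxcl3, of the same family, stood at 17.5 CPM against 756 CPM and at 5.05 CPM against 342 CPM. Lcn2, an iron-binding acute phase protein, stood at 845 CPM against 11331 CPM and at 718 CPM against 10053 CPM. Among the 12 lowest genes by the same ranking were also Cd177, Pf4, Rgs4, Lrg1, Hdc, C3, Pigr, Arg2 and Sftpa1. Pigr, the receptor that carries immunoglobulin A across epithelia, stood at 72.1 CPM against 799 CPM and at 23.6 CPM against 357 CPM.

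Genes of the interleukin 4 and 13 response were lower in 6 of 11 tested in both libraries and higher in 0, with medians of -2.57 and -1.96. Of 25 genes listed, only those 11 reached 20 CPM in both libraries. In C alone, 2 of 13 were higher and 8 lower, where 9.17% and 6.46% of all genes tested were. Retnla, a secreted protein strongly induced by IL-4 in lung epithelium and macrophages, stood at 1037 CPM against 15004 CPM in B and at 5232 CPM against 29373 CPM in C. These sums rest on cells with very unequal levels. The median per cell was 302 CPM against 11322 CPM in B and 414 CPM against 27231 CPM in C, and the summed level of marker-high cells of C lay above their upper quartile of 1840 CPM. Il4i1, an amino acid oxidase, had log2 differences of -4.25 and -3.43, and Hdc, which makes histamine, -3.86 and -3.75. Since IL-4 and PBS cells are mixed and not marked, a difference in the response and a difference in how many treated cells each class holds cannot be told apart.

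Of 18 MHC and interferon genes, 3 were lower and 2 higher in both libraries. H2-Eb1, an MHC class II chain, stood at 46.3 CPM against 153 CPM in B and at 70.7 CPM against 196 CPM in C. The higher ones were the interferon-induced Ifit3, at 43.3 CPM against 0.801 CPM and at 23.0 CPM against 0.341 CPM, and Isg15, at 34.9 CPM against 6.48 CPM and at 43.2 CPM against 8.71 CPM. When the highest 2% of cells, or only cells of 3000 UMIs or more, were used, 0 genes of this list were 2-fold higher in both.

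Stress and growth arrest genes went in several directions. Integrated stress and unfolded protein response genes were lower in 7 of 18 and higher in 0, with medians of -0.84 and -1.34. Xbp1, a transcription factor of that response, stood at 31.9 CPM against 144 CPM in B and at 37.6 CPM against 125 CPM in C. Of 15 p53, cell cycle inhibitor and senescence genes, 4 were higher and 0 lower: the CDK inhibitors Cdkn2b, Cdkn1b and Cdkn1c, and the stress sensor Gadd45b. The medians of these 15 were 1.33 in B and 0.39 in C. In B alone 11 of 15 were higher and 0 lower, where 11.7% and 8.00% of all genes tested were. In C alone 5 of 15 were higher and 1 lower, where 9.17% and 6.46% were. Cdkn2b, an inhibitor of CDK4 and CDK6 that TGF beta induces, stood at 187 CPM against 25.9 CPM and at 143 CPM against 21.9 CPM. Gadd45b stood at 1298 CPM against 80.4 CPM and at 717 CPM against 145 CPM. Oxidative stress and xenobiotic genes had 3 of 20 higher and 1 lower, led by Prdx6, a peroxiredoxin with phospholipase activity, at 1981 CPM against 315 CPM and at 1506 CPM against 375 CPM. The medians of that list were 1.01 in B and 0.46 in C. In B alone 11 of 21 were higher and 1 lower, and in C alone 3 of 20 and 1, beside the same shares over all genes. Among 12 immediate early genes, 2 were higher and 0 lower: Fosl2 and Ier3.

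Mitotic UMIs were seen in fewer marker-high cells than in the other cells. With every cell thinned to 1000 UMIs, which left out no cell of these classes, at least 1 of the 4 mitotic genes was seen in 3.21% of marker-high cells of B (exact binomial interval 1.48% to 6.01%, 9 of 280) and in 12.3% of all other cells (11.4% to 13.2%). In library C the shares were 1.92% (1.05% to 3.20%, 14 of 730) and 13.0% (12.5% to 13.6%). Without thinning they were 11.8% against 35.8% in B and 5.48% against 24.7% in C. S phase genes were seen in 9.29% against 15.2% of thinned cells in B and in 10.1% against 18.7% in C. Genes of the nuclear-encoded respiratory chain were level, with 0 of 21 higher and 0 lower in both and medians of -0.18 and -0.16.

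Glycolysis and hypoxia genes differed between the libraries. None of 23 was 2-fold higher or lower in both, with medians of 0.59 in B and -0.14 in C. In B alone, 9 of 25 were higher and 1 lower, where 11.7% and 8.00% of all genes tested were. In C alone, 0 of 23 were higher and 1 lower, where 9.17% and 6.46% were. Gapdh stood at 14962 CPM against 4504 CPM in B and at 7077 CPM against 6018 CPM in C. This difference between 2 single libraries was not tested.

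**Figure D4:**
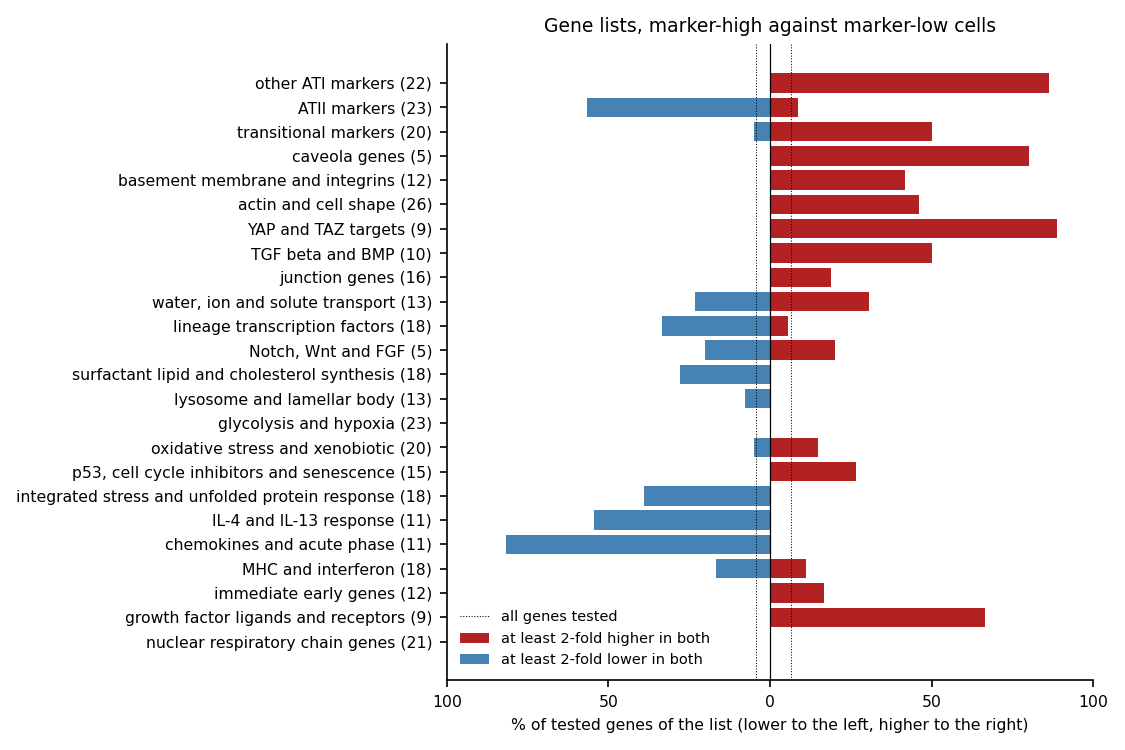
Share of the tested genes of each list (number tested in brackets) that stood at least 2-fold higher (red, to the right) or lower (blue, to the left) in marker-high cells in both libraries, in percent. Dotted lines give the shares over all genes tested, 6.48% higher and 4.45% lower; 19 of 22 other ATI markers were higher and 9 of 11 chemokine and acute phase genes lower.

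Most markers of cell types outside the alveolar epithelium were at or near 0 in marker-high cells, with exceptions named here. Of 10 endothelial markers, 7 were at 0 UMIs in B and 9 in C, among them Cdh5, Kdr and Cldn5 in both, and the list summed to 25.1 CPM and 21.3 CPM against 12 CPM and 18.5 CPM in marker-low cells. Most of that was Egfl7. Of 10 fibroblast markers, 10 and 9 were at 0. Of 7 mesothelial markers, 5 were at 0 in each library, Wt1, Upk3b and Lrrn4 among them, while Msln stood at 53.9 CPM against 0.668 CPM in B and at 66.8 CPM against 0.626 CPM in C. Macrophage markers summed to 22.0 CPM and 7.30 CPM, against 9.68 CPM and 6.54 CPM, nearly all from Cd68, with Marco, C1qa and Adgre1 at 0. Lymphocyte, erythroid, basal and neuroendocrine markers summed to at most 1.68 CPM in either library. Ciliated markers summed to 7.59 CPM and 30.3 CPM, against 3.87 CPM and 6.88 CPM in marker-low cells, with Foxj1 at 0 in both. Goblet markers summed to 3.80 CPM and 2.81 CPM, against 26.6 CPM and 36.7 CPM. Airway secretory markers summed to 132 CPM and 66.2 CPM, against 115 CPM and 119 CPM, and the part of these lists in the results was not tested. The largest share in marker-high cells came from Scgb1a1, the club cell secretory protein, at 90.4 CPM against 48.1 CPM in B and at 35.9 CPM against 58.7 CPM in C.

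Several genes, given here as examples, differed in steps along the ranking and not only at its top. The sum of the rule genes rests on few UMIs per cell. How far cells placed in a neighbouring range add to the values between was not tested. Cells, without those holding mitotic UMIs below the top range, were put in 5 ranges by the sum of the rule genes: up to 50%, 50 to 75%, 75 to 90%, 90 to 95% and 95 to 100%, the last being the marker-high cells. Cldn18 stood at 53.6, 69.3, 118, 234 and 717 CPM in these ranges of B and at 99.4, 174, 289, 479 and 924 CPM in C. Sftpc stood at 140615, 135542, 126847, 97535 and 59594 CPM in B. In library C Sftpc stood at 121492, 128298, 125328, 109971 and 92579 CPM, so that it was lower only in the 2 highest ranges. Sftpa1 was lower in each further range, from 13132 CPM to 974 CPM in B and from 10297 CPM to 1075 CPM in C. Cxcl5 stood at 1108, 871, 564, 156 and 21.3 CPM in B and at 1165, 403, 108, 30.6 and 12.9 CPM in C.

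Other genes did not follow the ranking in order. Lyz2, lysozyme, an ATII marker, stood at 181, 272, 346, 420 and 34.2 CPM in B, highest in the range just below the marker-high cells, and at 170, 223, 126, 46.7 and 16.3 CPM in C. Krt19 stood at 769 CPM in the range of 90 to 95% of C and at 751 CPM in its marker-high cells, while in B it went from 916 CPM to 1329 CPM. Gapdh in C stood at 8468 CPM in the range below and at 7077 CPM in the marker-high cells.

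**Figure D5:**
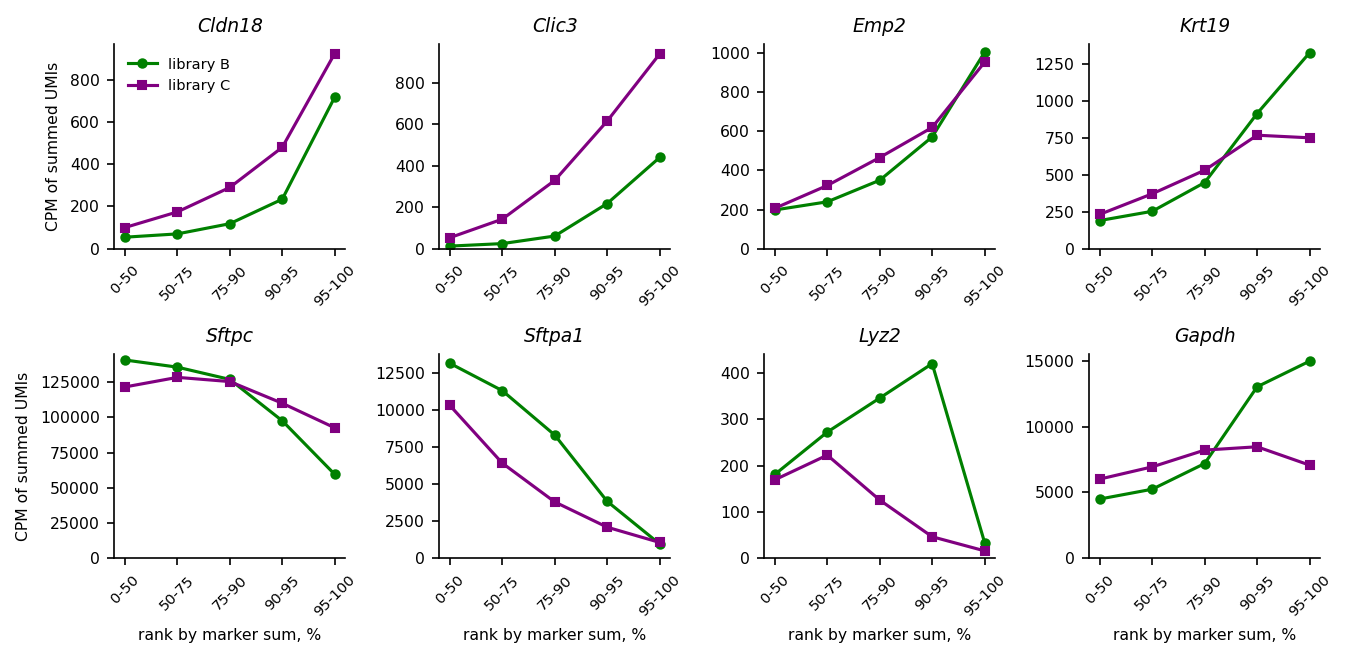
CPM of summed UMIs of 8 genes in 5 ranges of cells ranked by the summed fraction of the rule genes (percent of cells, horizontal), in libraries B (green circles) and C (purple squares). Cldn18 was higher in each further range, and Lyz2 in B was highest, at 420 CPM, in the range just below the marker-high cells, where it stood at 34.2 CPM.

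The marker-high cells also varied among themselves. The 140 cells of B with the larger sum of the rule genes held 967 CPM of Cldn18, 574 CPM of Clic3 and 643 CPM of Sftpa1, and the other 140 held 492, 319 and 1271 CPM. In library C the 365 cells with the larger sum held 1109, 1121 and 731 CPM of these genes, and the other 365 held 761, 780 and 1379 CPM. Sftpc differed little between the same cells: 60678 CPM against 58618 CPM in B and 86110 CPM against 98276 CPM in C.

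In library B the 54 marker-high cells without a Hopx UMI differed from the 226 with one in more than Hopx. They held 25517 CPM of Gapdh against 13188 CPM, 1425 CPM of Krt8 against 915 CPM, 296 CPM of Cldn18 against 788 CPM and 32284 CPM of Sftpc against 64183 CPM. Their median depth was 3458.5 UMIs against 4742 UMIs, and its part was not tested. In library C the 68 cells without Hopx held 7087 CPM of Gapdh against 7076 CPM in the 662 with it, 98277 CPM of Sftpc against 92064 CPM, and 528 CPM of S100a6 against 189 CPM. Cells with a Cav1 UMI, 34 in B and 87 in C, held 1114 CPM of Cldn18 against 648 CPM in the other marker-high cells of B and 1222 CPM against 880 CPM in C. Their median depth was 5257.5 UMIs against 4364 UMIs in B and 2444 UMIs against 2296 UMIs in C, and its part was not tested. Hopx and Cav1 were both used to choose the cells.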

How the data were processed

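The single matrix that the authors deposited holds raw UMI counts, whole numbers by gene and cell barcode. Per the submitters' processing notes, Cell Ranger 6.0.1 and bcl2fastq were used, and GRCm38 and mm10 are named; cell calling, doublet removal and assignment to mice are not given in the sources used here. Depth in libraries A, B and C was 63658436, 48677816 and 53372634 UMIs, with medians of 3749, 8349 and 3339 per cell of at least 1000 UMIs. Of 52636 IDs, 233 had no symbol in the GENCODE annotation of GRCm38 (0.0209% of UMIs).

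Ties in the lower 50% were broken by depth, deepest first. Counts were summed over each class, scaled to CPM and compared as log2 differences with a pseudocount of 1 CPM. Folds are ratios of CPM without it. Intervals are 95% exact: Poisson for CPM, conditional for folds, Clopper-Pearson for shares, and a count of 0 allows up to 3 counts. No test was run, since each library is 1 sample and its barcodes map to no label. No doublet caller was run; removing the 5% of cells highest in UMIs was an alternative.

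The members and lists were chosen with earlier results of these data known. Named genes are the 7 rule genes, the 12 highest and 12 lowest by the smaller difference (at least 50 CPM), up to 4 leading members per list and direction, tested ATI, ATII and transitional markers, and a few quality genes. Other genes, from the plots of ranges and subsets and the marker lists, were named after their values were seen. Alternatives were TMM (edgeR 4.0.16, R 4.3.3) and median-of-ratios scaling, another pseudocount, CPM filters, shares of cells, depth and quality filters, thinning, mitotic cells, comparison cells and leaving out each rule gene. Software was matplotlib 3.10.9, scipy 1.17.1, pandas 2.3.3 and numpy 2.4.6 under Python 3.11.15.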

Additional observations from a re-analysis of the deposited data

Results flagged for a closer look

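Library A, which the comparison does not use, also held UMIs of all 7 rule genes, each above the limit that a count of 0 allows (3 counts, 0.0471 CPM). Ager stood at 623 CPM there, Clic5 at 52.8 CPM, Hopx at 9.03 CPM, Akap5 at 3.22 CPM, Cav1 at 1.87 CPM, Rtkn2 at 1.10 CPM and Pdpn at 0.754 CPM. Over all cells of library B, Ager stood at 180 CPM and Hopx at 42.0 CPM, and over those of library C at 504 CPM and 116 CPM, so that library A had the highest Ager and the lowest Hopx of the 3. Since the libraries map to no label, no comparison of groups follows from this.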

How the results depend on the processing

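Counts of genes and the values of named genes were recomputed under 23 other settings, 1 of which, cells with UMIs of at least 3 of the 7 rule genes, was chosen after seeing the data. These gave 7728 gene values for 168 genes. A change of sign was counted only for a gene that passed the 2-fold rule in that library at the main setting. There were 4 such changes: Areg in B (-0.13, highest 2% of cells), Gsta1 in C (-1.26, highest 2%, and -0.50, all other cells as the comparison) and Lyz2 in B (0.44, highest 10%). Changes of sign in the remaining values were not counted. Of 129 named genes at least 2-fold apart in both libraries, between 98 and 129 stayed so. All 7 rule genes measured in cells chosen without them were recomputed under 4 of these settings (mean of single-cell fractions, highest 2%, highest 10%, cells of 3000 UMIs or more), stayed at least 2-fold higher in both libraries, and 0 of 56 values changed sign. Without a filter on low values 547 genes were higher in both libraries, 1351 in B and 1060 in C, and 509, 1498 and 1089 lower. With 50 CPM in either class 156, 323 and 247 were higher, and 101, 186 and 142 lower. The highest 10% of cells had 218 genes lower in B. Against all other cells, 281 were higher and 202 lower in C. Thinning to 1000 UMIs gave 676 lower in B. Cells chosen without Ager gave 127 lower in both and 205 lower in B. The cause was not tested, beyond the number of genes that a filter admits. No paired analysis was possible because each group has 1 sample and the barcodes map to no sample. Depth limits rare genes: Cav1, Pdpn and Rtkn2 rest on 14 to 92 UMIs in cells chosen without them, and genes under 20 CPM were not counted.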

Other observations

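Of all genes tested in both libraries, 1 passed the 2-fold threshold in opposite directions. Cbr2, a carbonyl reductase abundant in lung, had a log2 difference of -1.50 in B and 1.61 in C. It was named after its values were seen, and the difference between the libraries was not tested.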
